A study of Mus musculus with 4 samples.

Results

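The genes described here are 10 members of the bone morphogenetic protein (BMP) pathway, measured in the embryonic mouse cochlea: the ligands Bmp2, Bmp4 and Bmp7, the antagonists Nog, Chrd and Fst, and the inhibitor of DNA binding genes Id1, Id2, Id3 and Id4. They were found by their Ensembl gene IDs, and all 10 were among the 23879 genes of the expression table. RNA came from the whole cochlea, the hearing organ of the inner ear, of mouse embryos at embryonic day 15, on a background labelled 129/Sv and CD-1. The arrays fall into 2 groups, N-myc ko cochleae (n = 2) and wild-type cochleae (n = 2), which the labels call biological replicates. N-myc, encoded by Mycn, belongs to the MYC family of transcription factors. Embryos were sorted into mutants and wild types by PCR genotyping. The sources used here do not say how the mutation was made, which cells carried it or how many embryos went into a sample. The p-values therefore weigh the difference between groups against a spread between samples whose make-up is not known and part of which may be technical.

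BMPs are secreted signals of the TGF-beta family. They bind paired type I and type II serine/threonine kinase receptors, which phosphorylate SMAD proteins that enter the nucleus and switch on target genes. Noggin and chordin bind BMPs outside the cell and keep them from their receptors, whereas follistatin is best known for binding activins and also binds some BMPs. The ID genes are classic direct targets: their proteins have a helix-loop-helix but no DNA-binding region, and so hold other helix-loop-helix factors, among them those that start differentiation, away from DNA. In the developing cochlea BMP signalling takes part in patterning the duct from its medial to its lateral side, in hair cell differentiation, and in the formation of the surrounding cartilage capsule.

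Values are RMA expression values on the log2 scale, so that a difference of 1 is a 2-fold difference, and they are set against each other only within a gene. A call means a limma p of 0.14 or less after Benjamini-Hochberg adjustment over all genes, the false discovery rate limit of the study's design text, and calls under 0.05 are given beside it. Of all genes, 34.7% were called, 14.9% higher and 19.8% lower in N-myc ko cochleae. The share of calls that were higher was 43.0% as deposited, 56.8% when each array was centred on its median and 53.3% after cyclic loess normalisation. Genes above the median mean value of the table, 7.52, tended to read lower in N-myc ko cochleae in the values as deposited. Their median log2 change was -0.16, and all 10 genes described here lie above that mean value. Each change is therefore also set beside those of genes with an equal mean, taken as all other genes whose mean over the 4 arrays lay within 0.25 of it. Pearson's r across genes was at least 0.995 between arrays of a group and between 0.983 and 0.987 across groups. One gene, ENSMUSG00000086503, set wild-type replicate 1 apart, at 5.54 against 11.9 in wild-type replicate 2. It read 11.6 and 12.1 on the N-myc ko arrays, so wild-type replicate 1 differed in this gene from every other array. What sets that array apart was not tested, and the changes without it are given too. In such tissue samples, fewer cells of a type and less RNA per cell cannot be told apart. The Mycn transcript, the other genes of the pathway, among them the receptors and SMADs, and the markers of cochlear cell types were not analysed here, because the table gives IDs alone.

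Bmp4, Bmp7 and Id3 were lower in N-myc ko than in wild-type cochleae. On the linear scale Bmp4 fell by 29.9%, Bmp7 fell by 37.6% and Id3 fell by 34.4%. The other 7 genes, Bmp2, the 3 antagonists and Id1, Id2 and Id4, were not called, and none of the 10 was called higher. The falls are 3 of the 10 genes, beside 19.8% of all genes called lower and 32.5% of the genes above the median mean value, where all 10 lie. Around each of the 10 genes, between 17.6% and 38.1% of the genes of equal mean were called lower, so a count of 3 is close to that background. All 3 were also called under the stricter limit of 0.05, beside 8.20% of all genes and 13.6% of those above the median mean value. The median log2 change was -0.11 over the 10 genes, -0.16 over the genes above the median mean value and -0.030 over all genes. After a further quantile normalisation, which forces one distribution on the arrays, the same 3 genes were called lower at the limit of 0.14. Only Bmp7 then stayed under 0.05 (limma adjusted p = 0.043, against 0.052 for Bmp4 and 0.095 for Id3). At the limit of 0.14, 10.1% of all genes and 10.3% of those above the median mean value were called lower after this step. The medians were then 0.030 over the 10 genes, -0.015 over the genes above the median mean value and -0.0092 over all genes. The tendency of those brighter genes to fall was thus nearly absent after this step. The 3 called genes and Id1, 4 of the 10, had both N-myc ko arrays below both wild-type arrays, as did 36.2% of all genes and 55.5% of those above the median mean value.

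**Figure D1:**
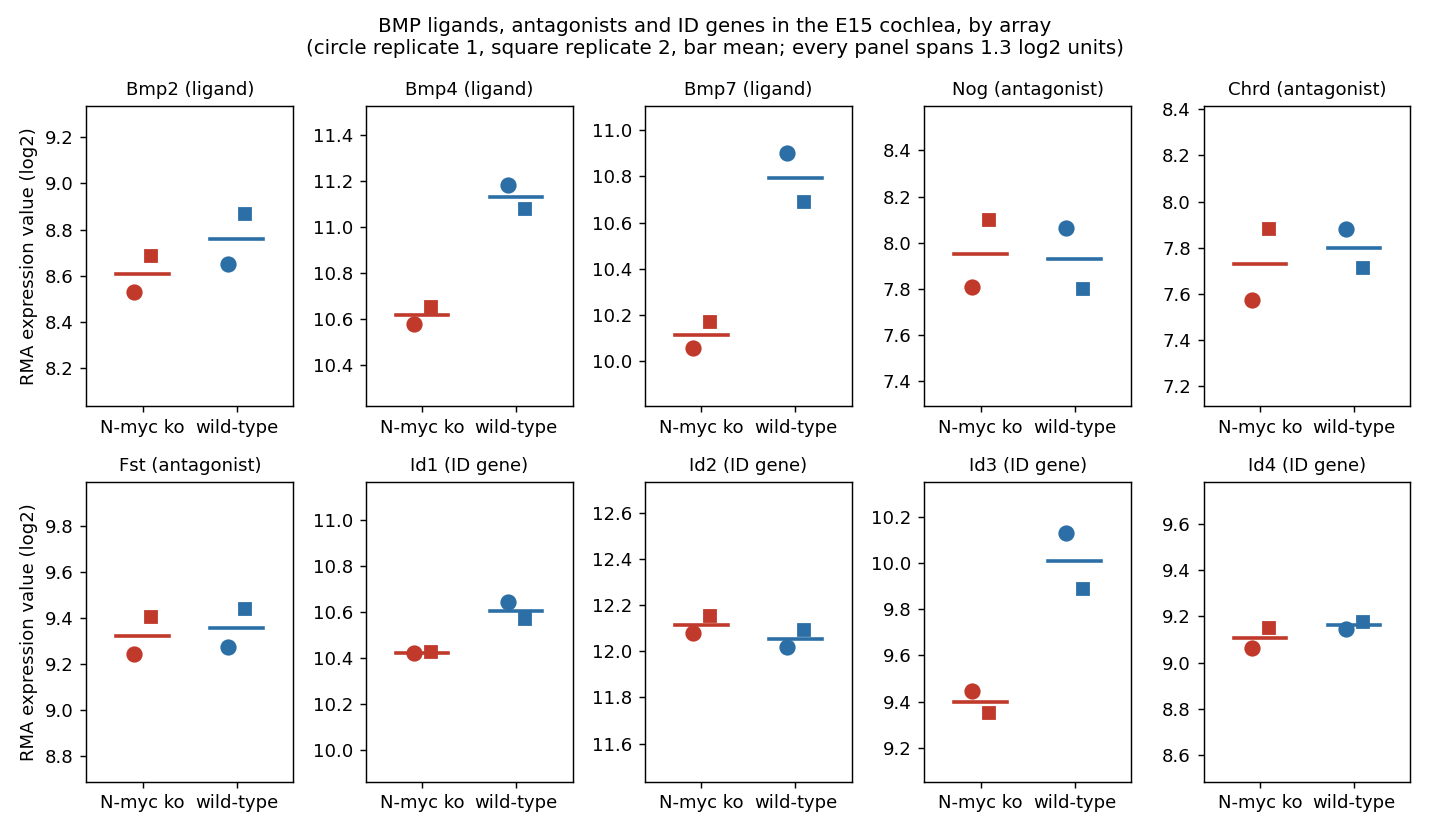
RMA expression value (log2) of each of the 10 genes on each array, with N-myc ko left (red) and wild-type right (blue) in each panel, replicate 1 as a circle, replicate 2 as a square and the group mean as a bar. Panels span the same range, so distances compare between genes but heights do not. The groups stand apart for Bmp4, Bmp7, Id3 and, by less, Id1, and overlap for the other genes.

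Among the ligands, Bmp4 (ENSMUSG00000021835), which in the cochlear duct is known as a marker of its lateral, outer sulcus side, read 10.58 and 10.65 on the N-myc ko arrays, against 11.18 and 11.08 on the wild-type arrays. Both mutant arrays were low, and the gap between the groups was wider than either gap between replicates (0.075 in N-myc ko and 0.11 in wild-type cochleae). The means were 10.62 ± 0.05 in N-myc ko and 11.13 ± 0.07 in wild-type cochleae (SD, n = 2 each). The log2 change was -0.51 (SE 0.096, 95% interval -0.74 to -0.28, limma adjusted p = 0.027). The 634 genes of equal mean had a median log2 change of -0.11, and 2.05% of them changed further down than Bmp4. Without wild-type replicate 1 the change was -0.46 (limma adjusted p = 0.091).

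Bmp7 (ENSMUSG00000008999), a ligand with broad roles in epithelial organs, read 10.06 and 10.17 on the N-myc ko arrays, against 10.90 and 10.69 on the wild-type arrays. The groups did not overlap, although the wild-type replicates were 0.21 apart, farther than is usual on these arrays, where the median gap over all genes was 0.11. The means were 10.11 ± 0.08 in N-myc ko and 10.79 ± 0.15 in wild-type cochleae (SD, n = 2 each). The log2 change, -0.68, was the widest of the 10 genes (SE 0.11, 95% interval -0.95 to -0.41, limma adjusted p = 0.022). Of the 947 genes of equal mean, whose median change was -0.12, 1.06% changed further down. Without wild-type replicate 1 the change was -0.57 (limma adjusted p = 0.069).

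Bmp2 (ENSMUSG00000027358), the close relative of Bmp4, read 8.53 and 8.69 on the N-myc ko arrays, against 8.65 and 8.87 on the wild-type arrays. The groups overlapped, since N-myc ko replicate 2 stood above wild-type replicate 1. The log2 change of -0.15 was not called (SE 0.12, 95% interval -0.43 to 0.13, limma adjusted p = 0.39). The 2002 genes of equal mean had a median of -0.21, so Bmp2 stood slightly above them, and after quantile normalisation its change was 0.038. Without wild-type replicate 1 its change was -0.26. A fall of the size estimated for Bmp4 lies outside the 95% interval of Bmp2. The intervals of these genes overlap, however, and a difference between their changes was not tested.

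**Figure D2:**
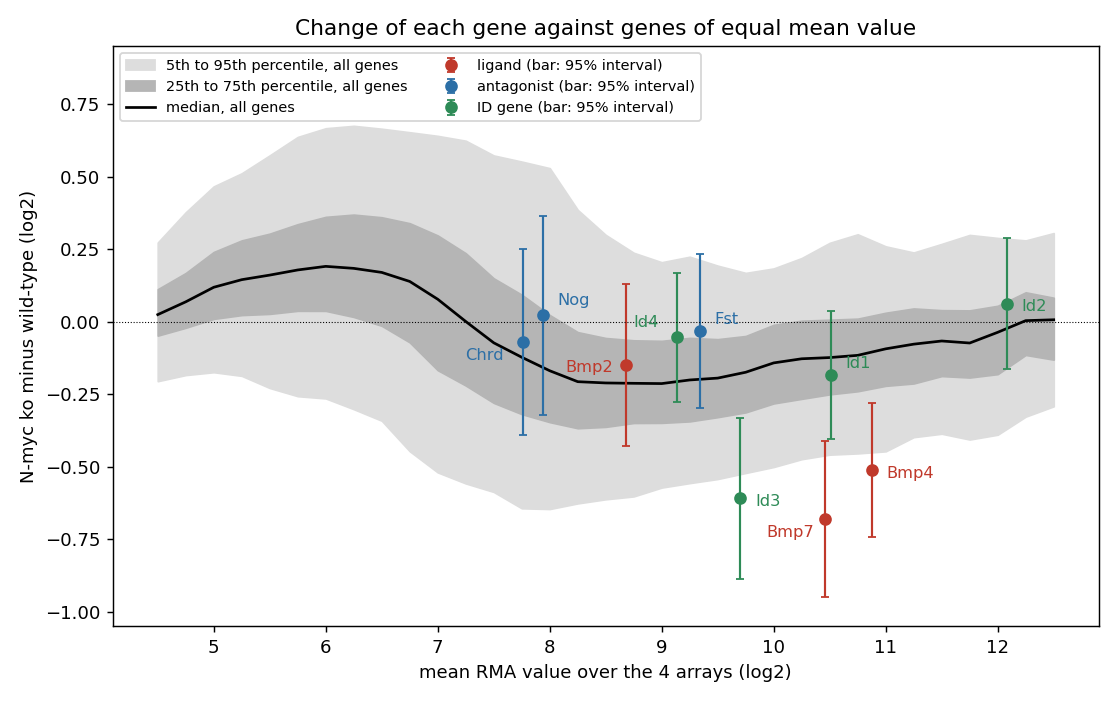
Log2 change, N-myc ko minus wild-type, of each of the 10 genes (points, with limma's 95% interval as bars) against its mean RMA value over the 4 arrays. Shading and the black line give the spread and the median over all genes within 0.25 of each mean. Bmp4, Bmp7 and Id3 lie below the 5th percentile of genes of equal mean, and the other 7 genes lie inside the 5th to 95th percentile band.

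None of the 3 antagonists was called. Noggin (Nog, ENSMUSG00000048616) read 7.81 and 8.10 on the N-myc ko arrays, against 8.06 and 7.80 on the wild-type arrays, so each group held a high and a low array. Its log2 change was 0.021 (95% interval -0.32 to 0.36, limma adjusted p = 0.93). Chordin (Chrd, ENSMUSG00000006958) read 7.57 and 7.88 on the N-myc ko arrays, against 7.88 and 7.71 on the wild-type arrays, and the groups again overlapped. Its change was -0.071 (95% interval -0.39 to 0.25, limma adjusted p = 0.74). In N-myc ko cochleae the replicates of these genes were the farthest apart of the 10, with gaps of 0.29 for Nog and 0.31 for Chrd, and their intervals do not exclude changes of about 0.3 in either direction for Nog or downwards for Chrd.

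Follistatin (Fst, ENSMUSG00000021765) read 9.24 and 9.41 on the N-myc ko arrays, against 9.28 and 9.44 on the wild-type arrays. Both groups spanned nearly the same range, and the change was -0.034 (95% interval -0.30 to 0.23, limma adjusted p = 0.85). Against genes of equal mean all 3 antagonists stood higher than the median, by 0.18 for Nog, 0.057 for Chrd and 0.16 for Fst. After quantile normalisation their changes were 0.14, 0.021 and 0.15, and none was called. Without wild-type replicate 1 the changes were 0.15 for Nog, 0.014 for Chrd and -0.12 for Fst.

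Among the ID genes, Id3 (ENSMUSG00000007872) read 9.45 and 9.35 on the N-myc ko arrays, against 10.13 and 9.89 on the wild-type arrays. Both mutant arrays were low, and the higher of them lay 0.44 below the lower wild-type array. The wild-type replicates were 0.24 apart, the widest such gap of the 3 called genes, against a median of 0.11 over all genes. The means were 9.40 ± 0.07 in N-myc ko and 10.01 ± 0.17 in wild-type cochleae (SD, n = 2 each). The log2 change was -0.61 (SE 0.11, 95% interval -0.89 to -0.33, limma adjusted p = 0.027). Of the 1578 genes of equal mean, whose median change was -0.18, 2.34% changed further down. Without wild-type replicate 1, the higher of the wild-type arrays, the change was -0.49 (limma adjusted p = 0.085).

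Id1 (ENSMUSG00000042745), like Id3 a direct and widely used readout of BMP signalling, read 10.42 and 10.42 on the N-myc ko arrays, against 10.64 and 10.57 on the wild-type arrays. The groups did not overlap, but the log2 change of -0.18 was not called (SE 0.091, 95% interval -0.40 to 0.037, limma adjusted p = 0.21). It lay within the middle of the 908 genes of equal mean, 36.6% of which changed further down. After quantile normalisation the change of Id1 was -0.070, and without wild-type replicate 1 it was -0.14.

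Id2 (ENSMUSG00000020644) read 12.08 and 12.15 on the N-myc ko arrays, against 12.02 and 12.09 on the wild-type arrays. The groups overlapped, and the change of 0.062 was not called (95% interval -0.16 to 0.29, limma adjusted p = 0.67). Id4 (ENSMUSG00000021379) read 9.06 and 9.15 on the N-myc ko arrays, against 9.14 and 9.18 on the wild-type arrays. It too overlapped between the groups, with a change of -0.054 (95% interval -0.28 to 0.17, limma adjusted p = 0.71). Without wild-type replicate 1 the changes were 0.025 for Id2 and -0.071 for Id4. Falls as large as the estimate for Id3 lie outside the 95% intervals of Id1, Id2 and Id4. The intervals of Id3 and Id1 overlap, however, and differences between the changes of ID genes were not tested.

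The called and the other genes were next set against each other on the same array, which cancels any shift that both genes share. In each of these sentences the quantity is a difference between genes' log2 values, which measures unequal change and not relative abundance. The mean shift of a pair equals the difference between the log2 changes of its 2 genes given above. Shifts between called and other genes therefore restate the calls and add no further evidence for them. Bmp4 minus Nog was 2.77 and 2.56 on the N-myc ko arrays, against 3.12 and 3.28 on the wild-type arrays, a mean shift of -0.53. Bmp7 minus Nog was 2.25 and 2.07 on the N-myc ko arrays, against 2.84 and 2.89 on the wild-type arrays, a mean shift of -0.70. Both differences were smaller on each N-myc ko array than on either wild-type array. Against Chrd the shifts were -0.44 for Bmp4 and -0.61 for Bmp7, and against Fst -0.48 and -0.65, with no overlap between the groups. Bmp2 minus Nog (shift -0.17) and Bmp2 minus Chrd (shift -0.079) overlapped between the groups. Bmp2 minus Fst was -0.71 and -0.72 on the N-myc ko arrays, against -0.62 and -0.57 on the wild-type arrays, a shift of -0.12.

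Within the ligands, Bmp2 minus Bmp4 was -2.05 and -1.97 on the N-myc ko arrays, against -2.53 and -2.21 on the wild-type arrays, a shift of 0.36. Bmp2 minus Bmp7 shifted by 0.53, and Bmp4 minus Bmp7 by 0.17. The gap between Bmp2 and the called ligands was thus narrower on both mutant arrays. Among the ID genes, Id2 minus Id3 was 2.63 and 2.80 on the N-myc ko arrays, against 1.89 and 2.20 on the wild-type arrays, a shift of 0.67. Id1 minus Id3 shifted by 0.43 and Id3 minus Id4 by -0.55, again with no overlap. In all, 21 differences were computed (all pairs within a role and each ligand minus each antagonist), and they share the same 10 genes. The groups did not overlap in 17 of the 21, so a lack of overlap is not particular to the called genes. It was also seen between genes that were not called, such as Id1 minus Id2 (shift -0.24) and Nog minus Chrd (shift 0.092). The share of pairs without overlap among all genes was not computed, so the 17 have no background beside them. Of the 23879 single genes, 8641 had both N-myc ko arrays below both wild-type arrays, and 6868 had both above. With 2 arrays against 2 the smallest p of an exact two-sided permutation test is 0.333, and these differences between genes were not tested. After quantile normalisation the shift kept its sign in each difference named here except Bmp2 minus Chrd, which became 0.017.

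**Figure D3:**
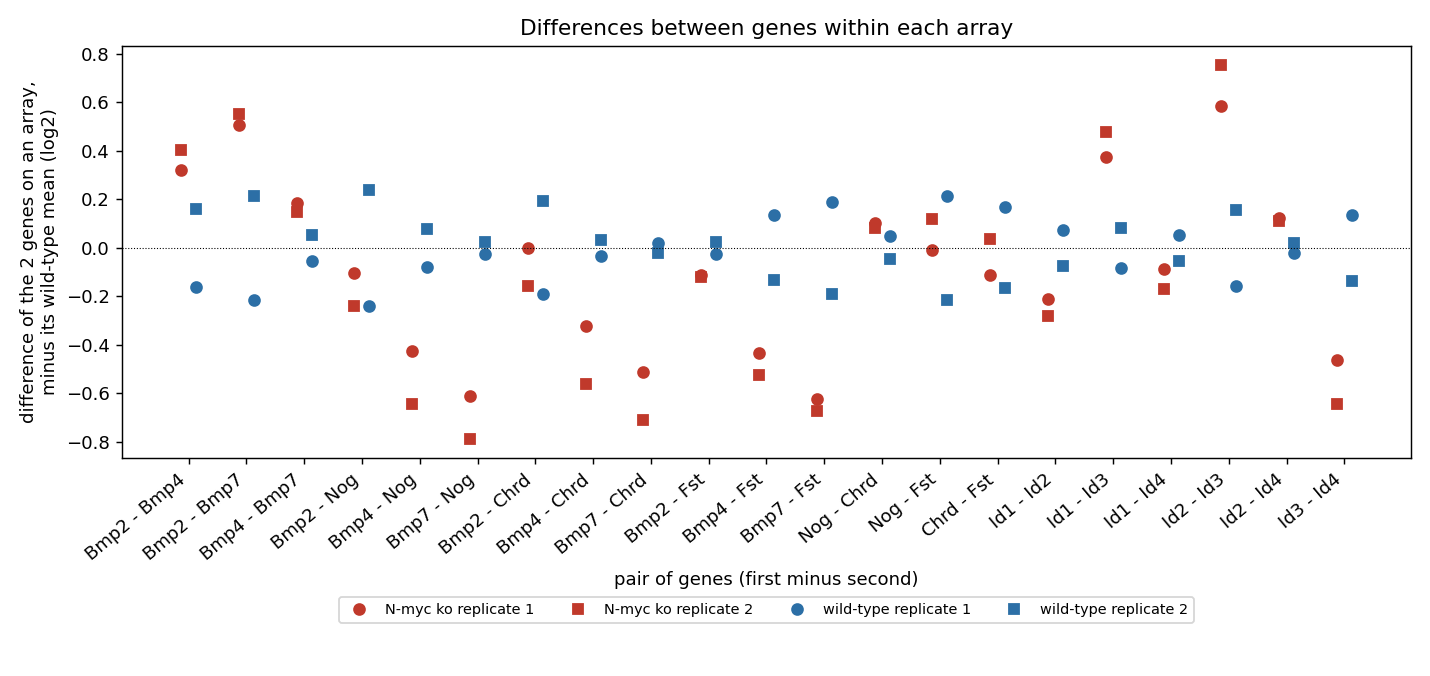
Difference between the log2 values of 2 genes on the same array, minus the wild-type mean of that difference, for each pair of genes within a role and each ligand minus each antagonist. N-myc ko arrays are red, left in each pair, and wild-type arrays blue, with replicate 1 as a circle and replicate 2 as a square. Differences that set Bmp4, Bmp7 or Id3 against a gene that was not called lie farthest from the wild-type arrays, which follows from the changes of the single genes.

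The sequence before the gene start was searched for 2 short motifs, as a description only. RefSeq promoter entries (GRCm38.p6) were at hand for 5 of the 10 genes, Bmp4, Chrd, Id2, Id3 and Id4, and the 250 bases before the start were searched. The motifs were CACGTG, the E-box that MYC proteins bind with their partner MAX, and GGCGCC, a GC-rich element that BMP-activated SMADs bind. Each reads the same on both strands, and no matches overlapped. The stretches of a called ligand, the called ID gene and the ID gene with the highest change are shown 5′ to 3′, ending at the base before the start, with matches in capitals. Bmp4 lies on the minus strand at chr14:46390670-46390919, Id3 on the plus strand at chr4:136143572-136143821 and Id2 on the minus strand at chr12:25096093-25096342.
Bmp4: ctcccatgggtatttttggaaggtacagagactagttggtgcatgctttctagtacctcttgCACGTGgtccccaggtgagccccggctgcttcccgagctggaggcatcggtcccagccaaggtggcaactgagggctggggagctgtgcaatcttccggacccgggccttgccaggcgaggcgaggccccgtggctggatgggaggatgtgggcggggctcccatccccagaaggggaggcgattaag
Id3: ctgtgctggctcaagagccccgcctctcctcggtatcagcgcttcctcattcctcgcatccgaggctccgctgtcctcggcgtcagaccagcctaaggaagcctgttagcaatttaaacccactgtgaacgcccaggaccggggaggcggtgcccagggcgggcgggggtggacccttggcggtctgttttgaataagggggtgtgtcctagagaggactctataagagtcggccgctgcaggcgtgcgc
Id2: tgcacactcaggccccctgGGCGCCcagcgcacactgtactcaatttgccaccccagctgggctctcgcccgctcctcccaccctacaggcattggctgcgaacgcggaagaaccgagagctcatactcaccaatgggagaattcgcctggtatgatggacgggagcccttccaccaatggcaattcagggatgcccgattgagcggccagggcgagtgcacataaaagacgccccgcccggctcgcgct
The Bmp4 stretch held 1 CACGTG, from 188 to 183 bases before the start, and it was the only one of the 5 with this motif, which 6.02% of all 32851 promoter entries hold. GGCGCC was found once each in Id2 (231 to 226 bases before the start), Id4 (148 to 143) and Chrd (203 to 198), and in 9.59% of all entries. The Id3 stretch held neither motif. A match describes the letters in this window alone, and a link between the motifs and the changes was not tested. The called gene Bmp7 had no entry.

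The 3 falls were called under each of the 13 other settings run, and the 7 remaining genes under none of them. The change of Bmp4 ranged from -0.57 to -0.40, with limma adjusted p from 0.014 to 0.11. That of Bmp7 ranged from -0.79 to -0.54, with adjusted p from 0.011 to 0.086, and that of Id3 from -0.73 to -0.43, with adjusted p from 0.018 to 0.095. The smallest sizes came with cyclic loess normalisation, and after quantile normalisation the changes were -0.42 for Bmp4 (limma adjusted p = 0.052), -0.56 for Bmp7 (limma adjusted p = 0.043) and -0.44 for Id3 (limma adjusted p = 0.095). Of the genes that were not called, Id1 stayed below 0 and Id2 above 0 in each setting, whereas the sign of Bmp2, Nog, Chrd, Fst and Id4 turned in at least 1.

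**Figure D4:**
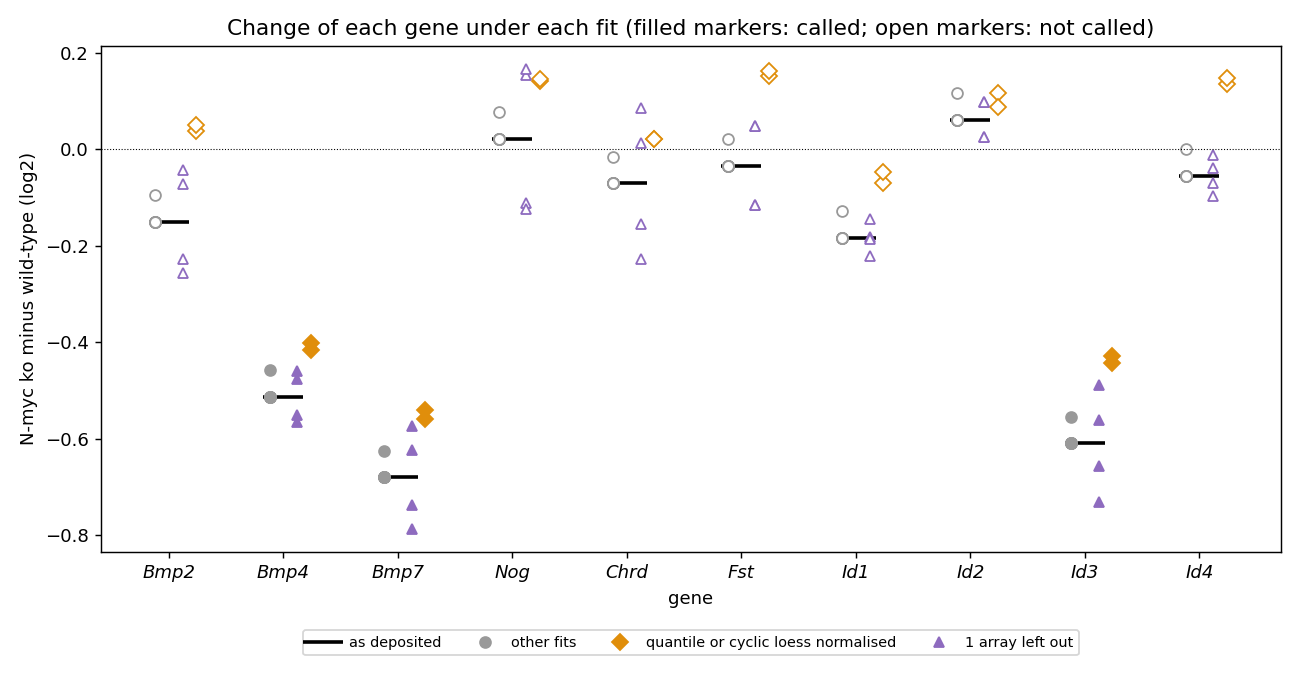
Log2 change, N-myc ko minus wild-type, of each gene as deposited (black bar) and under the 13 other settings, with filled markers where the gene was called and open markers where it was not. Bmp4, Bmp7 and Id3 lie between -0.79 and -0.40 and are called throughout, and the other genes lie between -0.26 and 0.17.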

How the data were processed

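The 4 arrays measured total RNA of whole cochleae, amplified with the WT Expression Kit and labelled with biotin, per the labels' protocols. The deposited log2 values, 1 per Ensembl gene ID, were made by the authors with RMA (background correction, normalisation within and between arrays), per the series' design text, and with the affy package, per the submitters' processing notes. The sources used here do not give versions, array design or probe assignment. The log2 scale is read from the values (3.63 to 14.3). The number of arrays limits the precision.

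Here limma 3.58.1 (R 4.3.3, lmFit and eBayes, no trend, two-sided) was fitted to all 23879 rows, N-myc ko minus wild-type, with 2 residual and 4.33 prior degrees of freedom. The study's own test, SAM, was not rerun. Symbols come from the list that defined the genes by ID, since the reference table (49997 genes) pairs 0 of its genes with an Ensembl ID. All 10 listed genes are named, and no others. Lists of other pathway genes and cell type markers, fixed by symbol, could not be looked up. The genes, lists and settings were chosen with earlier results of these data known. The fit was tested on simulated data.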

Additional observations from a re-analysis of the deposited data

How the results depend on the processing

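The counts of called genes (3 in all, 0 higher and 3 lower) were the same under each alternative: the limit of 0.05, a variance trend (plain or robust), array weights, quantile or cyclic loess normalisation, median centring, the brighter genes alone, the replicate block, and omission of single arrays. Where 1 array is omitted, the remaining array of its group is taken to vary as the other group does. Of the 7 genes that were not called, 5 changed sign in some setting, and the cause was not tested. After quantile normalisation the log2 changes were 0.038 for Bmp2, 0.021 for Chrd, 0.15 for Fst and 0.13 for Id4. After cyclic loess they were 0.050, 0.021, 0.16 and 0.15, and after centring 0.022 for Fst and 0.00089 for Id4. Without 1 array, Nog ranged from -0.12 to 0.17, Chrd from -0.23 to 0.085 and Fst from -0.12 to 0.048. Over all genes, 8280 calls became 3572 under 0.05, 4816 after quantile normalisation, 4962 after cyclic loess, 4757 when only the 11939 brighter genes were tested, and 3151 to 6559 without 1 array. The replicate numbers share no stated origin, and the replicate 1 minus replicate 2 differences of the groups correlate at 0.12 across genes. With the replicate block 8835 genes were called, and the changes of Bmp4, Bmp7 and Id3 stayed at -0.51, -0.68 and -0.61 (limma adjusted p = 0.042, 0.037 and 0.034).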
